A study of Mus musculus with 10 samples.

Results

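Matricellular and elastic fibre genes were followed in the tibialis anterior muscle of mice with cancer cachexia, the loss of body weight and muscle that accompanies a tumor. A list of 10 genes was used, taken by symbol from the 39179 gene identifiers of the count data, and all 10 passed the filter on low counts that left 12690 tested genes. Of the 10 genes, Fbn1, Mfap5, Eln and Fbln1 encode proteins of the elastic fibre. Fn1, Postn, Tnc, Sparc, Spp1 and Ccn2 encode fibronectin and matricellular proteins.

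Elastic fibres are built from a core of cross-linked elastin laid down on a scaffold of fibrillin microfibrils, and they let tissues recoil after stretch. Matricellular proteins are secreted into the extracellular matrix (ECM), where they do less to carry load than to adjust how cells attach, migrate and respond to growth factors such as TGF-beta. In skeletal muscle most of these transcripts come from interstitial fibroblasts, fibro-adipogenic progenitors, tendon cells and vessel walls rather than from muscle fibres.

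The Control group was 4 mice injected with buffer in the flanks, and the LLC group was 6 mice injected there with Lewis Lung Carcinoma cells, a mouse lung cancer line that grows as a tumor under the skin and causes cachexia. The labels give both groups as isogenic C57BL/6J mice, 10 weeks old at injection, with LLC muscle taken after 23 days. The design text of the series instead gives C57BL/10 males, a younger age and 1 day less, so strain, age and day are uncertain, although nothing in the sources separates the groups in strain or age. The model is 1 cell line transplanted under the skin, with neither pair-fed nor time-course mice among the samples used here. Total counts per sample were 16693209 to 21303084, mitochondrial genes took 28.4 to 30.7% of counts in Control and 22.0 to 27.9% in LLC, and the sample LLC 1, which had the fewest counts, lay apart from the others at a distance of 77.0 from its group's centre against 29.0 to 40.2 for the other 5 LLC samples. Markers of fast muscle fibres were abundant in every sample, with summed levels of 109181 to 117151 CPM in Control and 79276 to 127004 CPM in LLC. CPM is the count relative to a common library total, scaled here by TMM factors, and with bulk muscle RNA fewer cells of a type and less RNA per cell cannot be told apart.

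Cells hold on to several of these proteins through integrins that bind arginine, glycine and aspartate in a row. These codons were found in frame in 4 of the 10 coding sequences (GENCODE M21, 1 transcript per gene), against 7.24% of 21620 genes. Each window below gives the 3 codons in capitals with 12 bases on either side, to show which of the genes carry this attachment site.
Fn1: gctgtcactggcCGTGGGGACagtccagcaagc
Fbn1: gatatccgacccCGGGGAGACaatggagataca
Spp1: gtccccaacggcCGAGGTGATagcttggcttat
Mfap5: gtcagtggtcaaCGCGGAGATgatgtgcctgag
The first such codon was at position 1614 of Fn1, 1543 of Fbn1, 145 of Spp1 and 30 of Mfap5. The coding sequence of Eln stood apart in another way, since glycine took 36.3% of its 860 codons and cysteine 0.233%, whereas cysteine took 12.6% of the 2873 codons of Fbn1.

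RefSeq promoters, windows of 300 bases that reach from upstream to just past the start on build GRCm38.p6, were matched for 6 of the 10 genes. None was matched for Fn1, Eln, Mfap5 and Ccn2, so these were not searched for motifs. The promoters of Postn and Tnc are shown because these genes had the largest fitted falls, with the TATA box letters TATAAA in capitals.
Postn (chr3:54360857-54361156, plus strand): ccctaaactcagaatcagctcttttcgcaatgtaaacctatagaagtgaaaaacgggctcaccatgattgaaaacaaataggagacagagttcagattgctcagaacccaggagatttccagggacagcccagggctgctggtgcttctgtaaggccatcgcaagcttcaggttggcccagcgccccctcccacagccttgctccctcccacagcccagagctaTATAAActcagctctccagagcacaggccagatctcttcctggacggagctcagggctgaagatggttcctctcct
Tnc (chr4:64046966-64047265, minus strand): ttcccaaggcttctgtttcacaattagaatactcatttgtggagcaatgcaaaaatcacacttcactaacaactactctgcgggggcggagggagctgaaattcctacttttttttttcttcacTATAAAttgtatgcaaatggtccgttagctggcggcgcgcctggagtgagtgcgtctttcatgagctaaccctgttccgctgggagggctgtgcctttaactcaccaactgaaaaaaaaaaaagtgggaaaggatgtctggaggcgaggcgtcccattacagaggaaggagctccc
TATAAA began at position -26 from the listed start in Postn, -126 in Tnc and -211 in Spp1, and 13.6% of 32851 promoters held it on either strand. None of the 6 promoters held CATTCC, the TEAD motif, TGACTCA, the AP-1 motif, or GTCTAGAC, a SMAD motif, which were present in 14.7%, 5.20% and 0.213% of all promoters on either strand. The listed starts of Sparc and Fbn1 lay 3103 and 1555 bases from the GENCODE gene starts, so their windows describe another start than the annotated one.

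Transcripts of 6 of the 10 genes were lower in LLC than in Control and none was higher in edgeR's quasi-likelihood test, with a Benjamini-Hochberg adjusted p of at most 0.05 over all tested genes and a change of at least 1.5-fold. These were Postn, Tnc, Mfap5, Fbn1, Fn1 and Ccn2. Of all tested genes 3.99% were lower and 1.65% higher by the same rule. Every fitted change of the 10 genes was below 0, 9 had an unadjusted p under 0.05, and the median log2 fold change was -1.40 against 0.00 over all tested genes. The DESeq2 Wald test gave 7 lower and 0 higher, adding Spp1, against 5.23% lower of all genes. Values of Control and LLC did not overlap for 7 of the 10 genes, always with LLC below, a pattern shown by 9.57% of tested genes. Without LLC 1 the count stayed at 6.

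**Figure D1:**
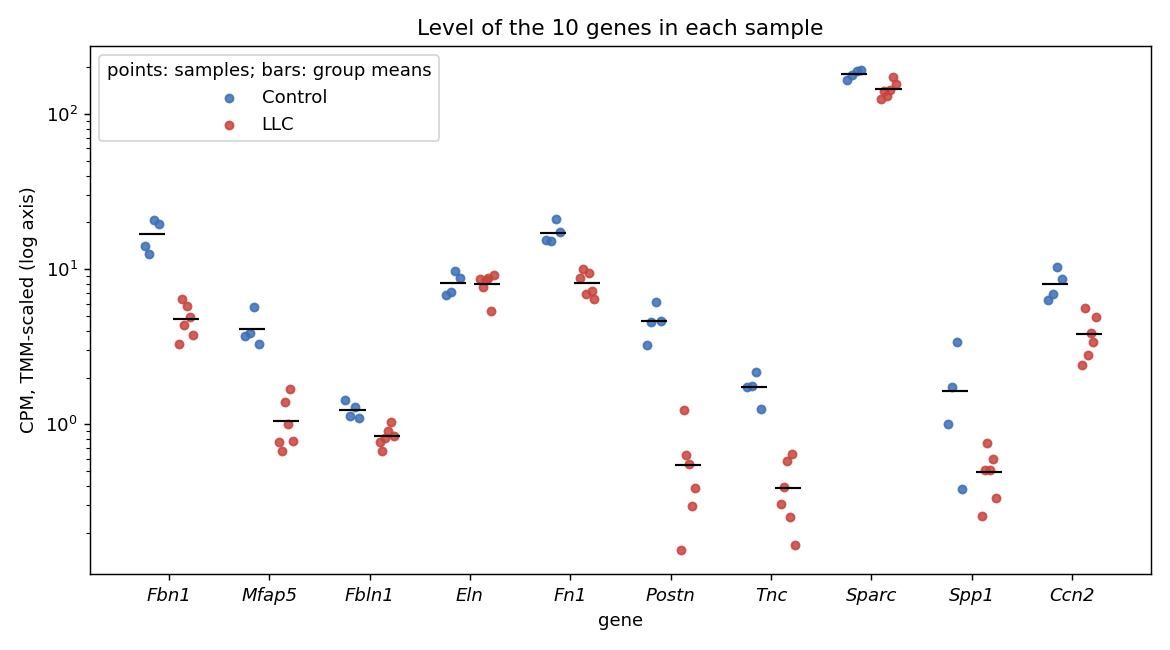
CPM of each of the 10 genes on a log axis, with 1 point per sample (blue, 4 Control; red, 6 LLC) and a bar at each group mean, for comparison between groups within a gene. The LLC points lie wholly below the Control points for 7 genes, while those of Eln, Sparc and Spp1 overlap.

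Of the 10 genes, the microfibril genes Fbn1 and Mfap5 both fell. Fbn1 (ENSMUSG00000027204, chr2:125300594-125507993, minus strand) encodes fibrillin-1, the main structural protein of the microfibril. Its level was 14.0, 12.5, 20.8 and 19.7 CPM in Control 1 to 4, and 3.29 (lowest), 4.63 (median) and 6.44 (highest) CPM in LLC. The highest LLC value was well under the lowest Control value, so the groups did not overlap. The log2 fold change was -1.82 ± 0.20 (SE, n = 4 and 6, edgeR adjusted p = 0.000414), which is 3.52-fold lower.

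Mfap5 (ENSMUSG00000030116, chr6:122505845-122529290, plus strand) encodes a small glycoprotein that decorates fibrillin microfibrils. It was at 3.71, 3.90, 5.68 and 3.29 CPM in the Control samples, and at 0.678, 0.895 and 1.69 CPM (lowest, median, highest) in LLC. Control 3 was the highest of the 4 Control samples and LLC 5 the highest of the LLC samples, still below every Control value. The fall was 1.97 on the log2 scale (-1.97 ± 0.25, edgeR adjusted p = 0.000979).

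Eln (ENSMUSG00000029675, chr5:134702593-134747323, minus strand) encodes tropoelastin, the soluble unit of the elastic core. Its level was 6.83, 7.16, 9.73 and 8.82 CPM in Control, and 5.40, 8.52 and 9.22 CPM (lowest, median, highest) in LLC. The LLC values spread over the Control range, apart from LLC 5, which was below all Control samples. Its log2 fold change was -0.02, with a 95% interval of -0.37 to 0.32 (edgeR adjusted p = 0.937). The interval leaves out the 1.5-fold change used as the threshold in either direction, and the sign of the change turned in some of the alternative fits.

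Fbln1 (ENSMUSG00000006369, chr15:85205949-85286535, plus strand) encodes fibulin-1, a calcium-binding glycoprotein found with elastic fibres and fibronectin. It was scarce, at 1.43, 1.14, 1.30 and 1.10 CPM in Control and at 0.678, 0.825 and 1.04 CPM (lowest, median, highest) in LLC, or 12 to 27 counts in any sample. The groups did not overlap, but the highest LLC value and the lowest Control value were close. The log2 fold change of -0.55 ± 0.17 did not pass (edgeR adjusted p = 0.0831). It did in limma voom with quality weights, at -0.61 (adjusted p = 0.0304).

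Set as a log2 ratio of CPM to Eln in the same sample, a comparison chosen after the values were seen, Fbn1 lay between 0.79 and 1.15 in the Control samples and between -1.36 and -0.14 in the LLC samples. Mfap5 lay between -1.40 and -0.77 in Control but between -3.39 and -1.62 in LLC. In both, every LLC ratio was below every Control ratio. This was so for 6 of the 9 other genes (Postn, Fn1, Tnc, Fbn1, Mfap5 and Ccn2), against 4.02% of the other tested genes. These 6 are the genes called lower by edgeR, and each was already lower without overlap in CPM. As Eln itself had a log2 fold change of -0.02, the ratio restates those falls and is no separate result. Fbln1, Sparc and Spp1 overlapped between groups in their ratio to Eln. Between the microfibril genes themselves the log2 ratio of Fbn1 to Mfap5 was 1.99 ± 0.39 for the 4 Control and 2.10 ± 0.58 for the 6 LLC samples (SD).

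**Figure D2:**
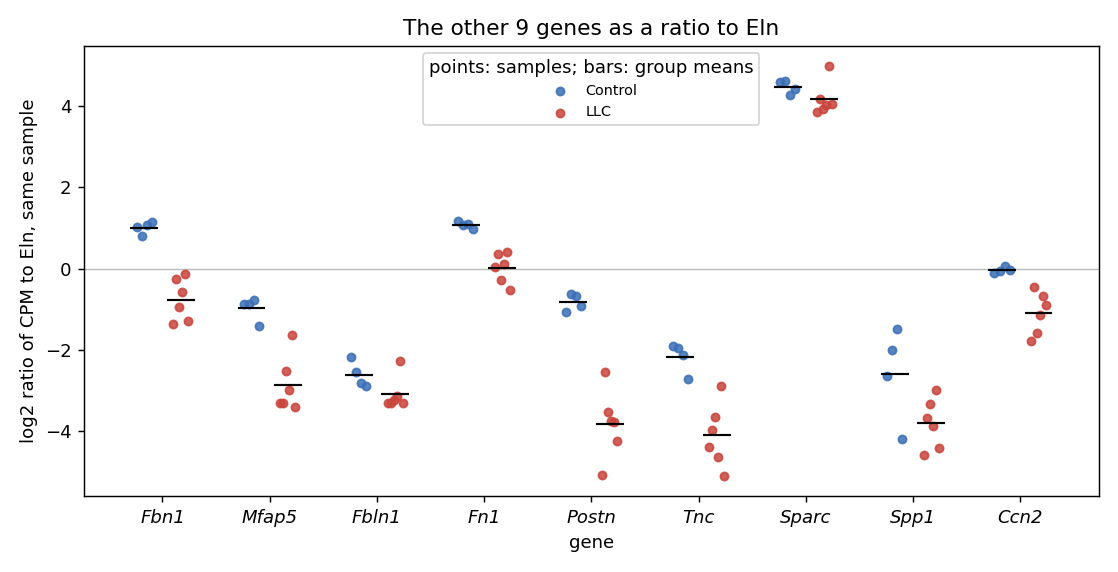
Log2 ratio of the CPM of each of the other 9 genes to that of Eln in the same sample (blue, 4 Control; red, 6 LLC; bars, group means). For Fbn1, Mfap5, Fn1, Postn, Tnc and Ccn2 all 6 LLC points lie below all 4 Control points.

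Among the adhesive and matricellular genes Postn changed the most. Postn (ENSMUSG00000027750, chr3:54361109-54391037, plus strand) encodes periostin, a matricellular protein that binds integrins and helps cross-link collagen. Its level was 3.23, 4.59, 6.11 and 4.60 CPM in Control, and 0.154, 0.473 and 1.24 CPM (lowest, median, highest) in LLC. Counts fell to between 3 and 22 per LLC sample from 61 to 113 per Control sample, and 3 counts was the smallest number taken as detected. The log2 fold change of -3.09 ± 0.36 (edgeR adjusted p = 0.000553) was the 5th largest fall of the 12690 tested genes. Over the leave-out fits it ran from -3.49 to -2.89.

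Tnc (ENSMUSG00000028364, chr4:63959785-64047015, minus strand) encodes tenascin-C, a hexameric glycoprotein that is scarce in resting muscle and appears around injured and loaded tissue. It was at 1.75, 1.78, 2.16 and 1.26 CPM in Control and at 0.168, 0.352 and 0.644 CPM (lowest, median, highest) in LLC. These are 23 to 40 counts against 3 to 13, so single LLC values rest on few reads. No LLC sample reached the lowest Control sample. Its log2 fold change was -2.13 ± 0.30 (edgeR adjusted p = 0.00142).

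Fn1 (ENSMUSG00000026193, chr1:71585520-71653200, minus strand) encodes fibronectin, the adhesive glycoprotein on which other matrix proteins assemble. Its level was 15.5, 15.1, 20.9 and 17.4 CPM in Control and 6.43, 8.04 and 10.0 CPM (lowest, median, highest) in LLC, with no overlap. It was 2.11-fold lower (log2 fold change -1.08 ± 0.15, edgeR adjusted p = 0.00112). The LLC values were closely grouped, with a coefficient of variation of 17.9%, against 70.1% for Postn.

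Ccn2 (ENSMUSG00000019997, chr10:24595442-24598683, plus strand) encodes connective tissue growth factor, a target of TGF-beta and of the YAP and TEAD pathway. It was at 6.30, 6.91, 10.3 and 8.66 CPM in Control and at 2.42, 3.63 and 5.65 CPM (lowest, median, highest) in LLC. The highest LLC sample, LLC 2, lay just below the lowest Control sample. In LLC it was lower by a log2 fold change of -1.07 ± 0.23 (edgeR adjusted p = 0.0185). The call was lost without Control 3 (-0.93, adjusted p = 0.0732) and without Control 4 (-1.03, adjusted p = 0.0617).

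Sparc (ENSMUSG00000018593, chr11:55394500-55423183, minus strand) encodes osteonectin, a collagen-binding matricellular protein. It was at 166, 178, 189 and 192 CPM in Control and at 125, 141 and 173 CPM (lowest, median, highest) in LLC. LLC 5, the highest LLC sample, lay inside the Control range and the other 5 lay below it. The log2 fold change of -0.33 ± 0.10 did not pass in edgeR (adjusted p = 0.0785), and DESeq2 gave an adjusted p of 0.0344 with a change under 1.5-fold.

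Spp1 (ENSMUSG00000029304, chr5:104435118-104441050, plus strand) encodes osteopontin, a phosphoprotein made by macrophages and injured muscle. It was at 1.01, 1.73, 3.41 and 0.383 CPM in Control and at 0.257, 0.506 and 0.753 CPM (lowest, median, highest) in LLC. Control 4 lay inside the LLC range and Control 3 was the highest. Its log2 fold change was -1.72 ± 0.49 (edgeR adjusted p = 0.0598, DESeq2 adjusted p = 0.0127), and it passed in edgeR without Control 4 (-2.04, adjusted p = 0.0171). Without Control 3 it was -1.09.

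Exons of 6 of the 10 genes overlap those of another annotated gene, and the study's methods give HTSeq at its default settings, which count by strand, for RefSeq genes, whereas the files list Ensembl identifiers. Antisense partners of Fn1, Fbn1, Tnc and Ccn2 had at most 3 counts in any sample. The antisense partner of Eln and the same-strand partner of Spp1 were not analysed here. For 9 of the 10 genes the SD of log2 CPM was the larger one in LLC, as it was for 85.1% of all tested genes. LLC 1 was the lowest LLC sample for 5 of the 10 genes, and LLC 2 and LLC 5 were the highest for 4 each.

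Per length, as CPM per kilobase of exon (FPKM, with GENCODE exon lengths), Sparc was the most abundant of the genes in both groups, at 47.9 ± 3.12 FPKM (SD, n = 4) in Control and at 38.1 ± 4.63 FPKM (SD, n = 6) in LLC. Ccn2 came next in both groups, at 2.81 ± 0.63 FPKM in Control and 1.34 ± 0.44 FPKM in LLC. In Control, Fn1, Fbn1, Mfap5, Eln, Spp1 and Postn followed from 1.47 to 0.53 FPKM, with each overlapping its neighbour in that order, and Fbln1 and Tnc were lowest at 0.28 and 0.22 FPKM. In LLC, Eln followed Ccn2 at 0.99 ± 0.17 FPKM, where its sample values overlapped those of its neighbours Ccn2 and Fn1. Postn was the next to last at 0.063 ± 0.044 FPKM, and Tnc was last at 0.050 ± 0.024 FPKM. These 2 overlapped each other but neither overlapped the gene above them, Fbln1.

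**Figure D3:**
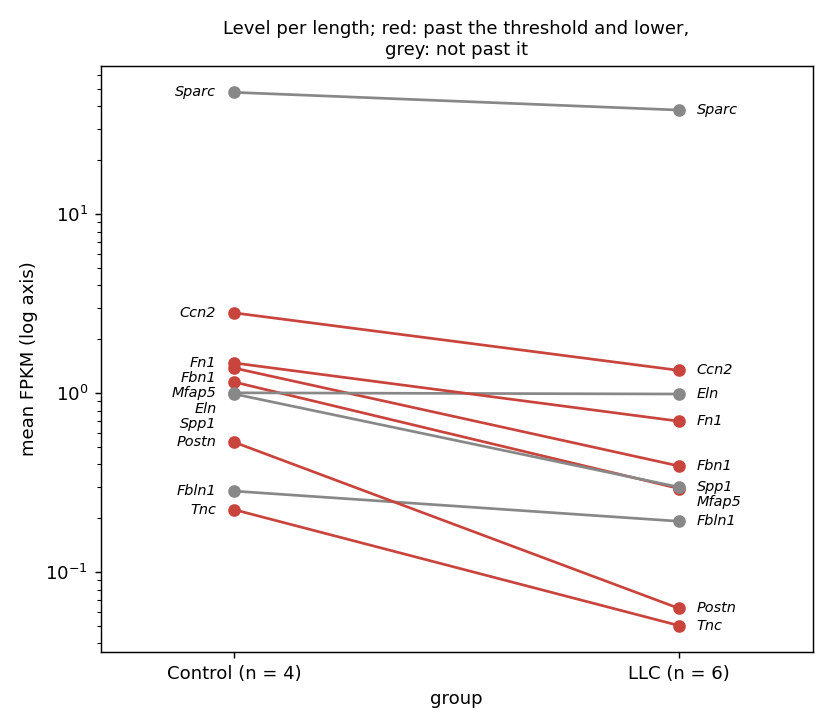
Mean FPKM of each gene in Control (4 samples) and LLC (6 samples) on a log axis, joined by a line that is red for the 6 genes called lower by edgeR and grey for the other 4. The line of Eln is level at about 1.00 and 0.99 FPKM, and those of Postn and Tnc drop furthest.

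Markers of interstitial cells moved as well. Of 12 markers of fibroblasts and fibro-adipogenic progenitors, all of them tested, 9 were lower and 1 was higher by the same edgeR rule, with a median log2 fold change of -1.42. Their summed level was 84.6 to 114 CPM in Control and 71.4 to 92.2 CPM in LLC. The marker that rose was Ly6a, which endothelial cells and interferon-treated cells also express (0.95 ± 0.15, adjusted p = 0.00359), and without it, a sum chosen after the values were seen, they were 62.9 to 81.5 CPM and 20.7 to 33.1 CPM. No marker in the list was at 0. Of 4 tested tendon markers 3 were lower, with sums of 21.3 to 24.9 CPM in Control and 3.09 to 7.09 CPM in LLC, and of 7 markers of smooth muscle and pericytes 4 were lower, with sums of 446 to 497 CPM and 256 to 366 CPM. Of 7 tested macrophage markers 1 was lower (sums of 24.9 to 38.0 CPM and 21.5 to 38.8 CPM). Of 6 endothelial markers 1 was lower, and 0 without Control 1, Control 3, Control 4 or LLC 6 (sums of 266 to 342 CPM and 267 to 315 CPM). All 7 tested neutrophil markers were higher (0.689 to 2.02 CPM against 32.8 to 70.9 CPM). Satellite cell markers were lower for 2 of 3 tested (8.82 to 9.90 CPM against 4.99 to 6.95 CPM). Schwann cell markers were lower for 1 of 4 tested (25.4 to 30.8 CPM against 12.5 to 20.6 CPM). Erythroid markers were higher for 3 of 5 (58.8 to 83.4 CPM against 88.7 to 144 CPM), and 0 of 2 tested adipocyte markers passed. With 1 sample left out, the satellite cell and erythroid counts fell to 1 in some fits. The part of these cell types in the changes of the 10 genes was not tested.

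Each tested gene was therefore also set against the mean log2 CPM of the 12 fibroblast markers in the same sample, a mean that was 1.18 lower in LLC, and compared with limma. On this scale 4 of the 10 genes were lower, Postn (-1.84 ± 0.33, adjusted p = 7.62e-05), Tnc (-0.78 ± 0.28, adjusted p = 0.0163), Mfap5 (-0.74 ± 0.25, adjusted p = 0.0116) and Fbn1 (-0.62 ± 0.18, adjusted p = 0.00370), against 0.378% of tested genes. Another 3 were higher than the markers, namely Eln (1.15 ± 0.20, adjusted p = 7.24e-05), Sparc (0.84 ± 0.16) and Fbln1 (0.67 ± 0.22). That direction was shown by 89.6% of tested genes, whose median was 1.16, so these 3 share the direction of most tested genes. Fn1, Ccn2 and Spp1 did not pass, with intervals of -0.22 to 0.42, -0.37 to 0.56 and -0.91 to 0.76. The call for Fbn1 was lost without LLC 1, Control 3 or Control 4, each time because the change came to less than 1.5-fold. With Ly6a left out of the mean, an alternative chosen after the values were seen, the mean of the other 11 markers was 1.37 lower in LLC and 1 of the 10 genes, Postn, was lower (-1.65 ± 0.32, adjusted p = 0.000128), against 0.197% of tested genes. Tnc (-0.59, adjusted p = 0.0614), Mfap5 (-0.54, adjusted p = 0.0535) and Fbn1 (-0.43, adjusted p = 0.0283 but under 1.5-fold) then did not pass, so their calls on this scale depend on Ly6a.

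**Figure D4:**
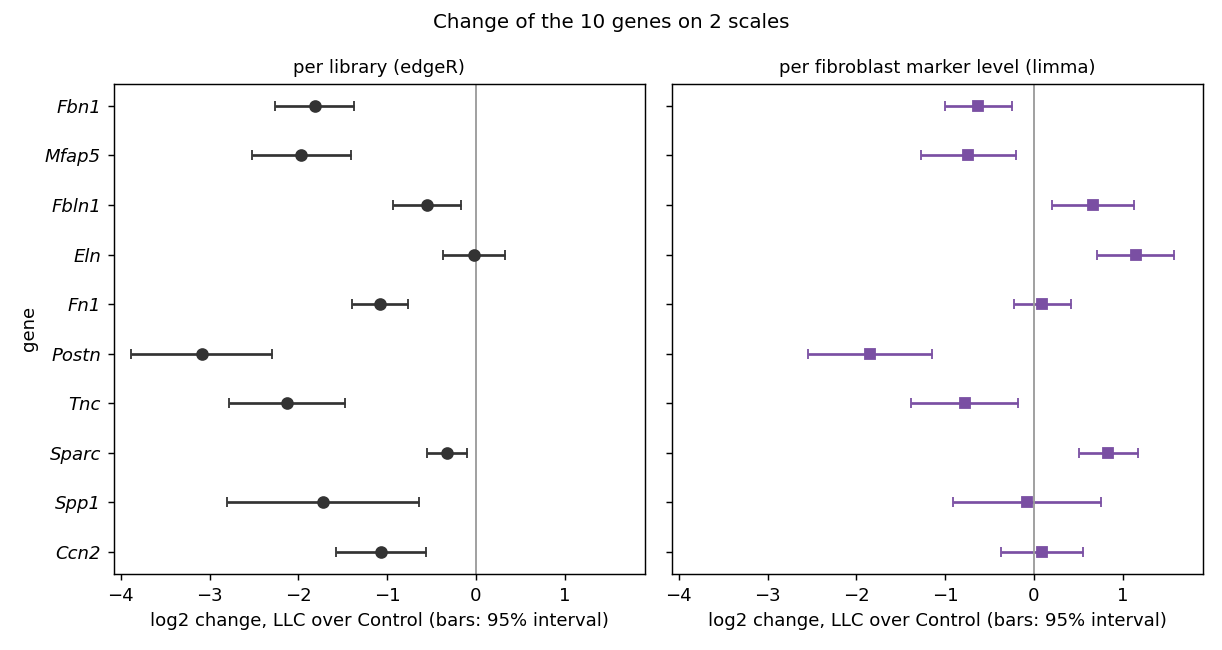
Log2 change in LLC over Control with its 95% interval, per library by edgeR (left) and relative to 12 fibroblast markers by limma (right). Postn, Tnc, Mfap5 and Fbn1 lie below 0 in both panels, of which Postn alone also passes on the right with Ly6a left out of the markers, whereas Eln moves from -0.02 on the left to 1.15 on the right.

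Most other genes of the elastic fibre did not pass the test. Of 12 other tested genes of the fibre 2 were lower and 10 did not pass, with a median log2 fold change of -0.31. The 2 were Efemp1, which encodes fibulin-3 (-1.55 ± 0.29, adjusted p = 0.00795), and Ltbp4, which encodes a latent TGF-beta binding protein needed for fibre assembly (-1.47 ± 0.20, adjusted p = 0.00107). With no filter on low counts 3 of 16 other fibre genes were lower, and with a block for replicate number 0 of 12 were. Mfap4, named after its values were seen, had 0 to 22 counts per sample and did not pass the filter on low counts. Its level was 0.477 to 1.21 CPM in Control and 0 to 0.149 CPM in LLC. Lox, the cross-linking enzyme of elastin and collagen, was named after its values were seen and had a log2 fold change of 1.19 ± 0.41, which did not pass in edgeR (adjusted p = 0.0974) and did in DESeq2.

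Of 14 other tested matricellular and adhesive genes 10 were lower and 4 did not pass, with a median of -1.23. The count of 10 was 6 without Control 2 and 6 without Control 3. With the block for replicate number 2 of 14 were lower, and with at least 10 counts in every sample 5 of 9 were. The largest falls were those of Ccn3 (-1.91 ± 0.24), Comp, a thrombospondin of cartilage and tendon (-1.91 ± 0.48), Thbs3, another thrombospondin (-1.72 ± 0.37) and Ccn5 (-1.62 ± 0.34), with Ccn3 and Ccn5 in the CCN family. These falls rest on few reads, at 3 to 33 counts per sample for Ccn3 and 0 to 16 for Comp. Thbs3 was at 3 to 44 counts and Ccn5 at 1 to 14. None of these genes passed the filter of at least 10 counts in every sample. Leaving out 1 sample in turn kept the call of Ccn3 in 10 of 10 fits, of Thbs3 and Ccn5 in 8 (not without Control 2 or Control 3) and of Comp in 3 (those without LLC 1, LLC 3 and LLC 5). Ccn1, a YAP target of the same CCN family as Ccn2, also named after its values were seen, had a log2 fold change of 1.01 ± 0.35 that did not pass in edgeR (adjusted p = 0.102) and did in DESeq2. It also passed in limma voom with quality weights (0.63, adjusted p = 0.0266). LLC 5 was at 110 CPM of Ccn1 and the other 5 LLC samples at 31.3 to 46.7 CPM, against 20.8 to 27.3 CPM in Control. Without LLC 5 its log2 fold change was 0.58 (edgeR adjusted p = 0.0453), just under 1.5-fold. The log2 ratio of Ccn1 to Ccn2 in CPM was 1.01 to 2.10 in the 4 Control samples and 2.51 to 4.98 in the 6 LLC samples. Every LLC ratio was above every Control ratio, with a difference of means of 1.92. This ratio was also chosen after the values were seen. In CPM, Ccn1 was already higher and Ccn2 already lower in every LLC sample than in any Control sample. The separation of the ratio follows from this and is no separate result.

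Of all tested genes 5.63% passed in either direction, and receptors and upstream factors passed in counts near that share. Of 16 tested receptors of these proteins, mostly integrins, 1 was lower, the endocytic receptor Lrp1 (24.5 ± 2.29 CPM in Control and 12.2 ± 1.65 CPM in LLC, SD, edgeR adjusted p = 0.000492). Of 12 genes of TGF-beta signalling 1 was higher, the receptor Tgfbr1 (0.65 ± 0.18, adjusted p = 0.0478), a call that was kept in 2 of the 10 fits with 1 sample left out, those without LLC 3 and LLC 4. Of 12 genes of the YAP, TEAD, MRTF and SRF pathways 0 passed in edgeR and 1 had an unadjusted p under 0.05. In DESeq2 and in limma voom 1 passed, Ccn1. Of 5 tested proteases that cleave elastin, Mmp2 (-2.01 ± 0.11) and the cathepsin Ctsk (-1.85 ± 0.26) were lower and Mmp9, which neutrophils store, was higher (1.97 ± 0.51, adjusted p = 0.0400). The call for Mmp9 was kept in 3 of the 10 fits with 1 sample left out, those without Control 3, LLC 1 and LLC 3, and its log2 fold change ran from 1.73 to 2.56 over the 10. Elane, neutrophil elastase, had no count in any sample.

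**Figure D5:**
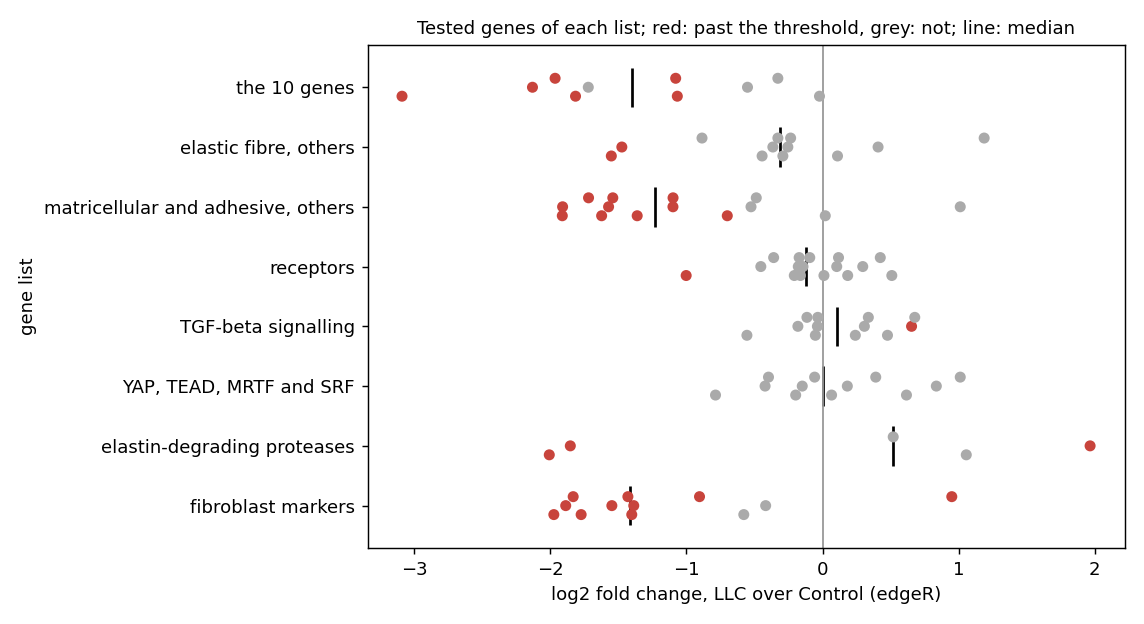
Log2 fold change in LLC over Control (edgeR) of the tested genes in 8 lists, red where past the threshold and grey where not, with a line at each median. The 10 genes, the other matricellular genes and the fibroblast markers centre near -1.40, -1.23 and -1.42, and the receptors near -0.12.

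Within groups the correlations between the 10 genes varied widely. Pearson correlations of log2 CPM between pairs of them, after subtracting each group's mean, ran from -0.54 to 0.75 with a median of 0.16 over 10 samples that share library and depth. Low counts, such as 3 to 13 for Tnc and 3 to 22 for Postn in LLC, can weaken such correlations. Pairs of other genes were not set beside them, so whether the 10 genes vary together was not tested. Among all other tested genes with an average log2 CPM of at least 1, the likeness to Fbn1 was highest for Gas8 (0.93), Fstl1 (0.93) and Uap1l1 (0.91), of which Fstl1 was itself lower in LLC (-1.33). For Postn they were AW112010 (0.97), Prelid3b (0.96) and Wdr13 (0.95), for Tnc Erp29, Mrpl55 and Mrps17 (0.93 each), and for Mfap5 Ptrh2 (0.95), Inpp5f (0.93) and Mif (0.92). For Eln they were Rictor (0.96), Prkx (0.95) and Tap1 (0.92), and for Fbln1 Zfp119b, Scand1 and Gas2l1 (0.94 each). For Fn1 they were Stard4 (0.89), Adgre5 (0.88) and Arhgef2 (0.87), and for Ccn2 Cad (0.95), Fdxr (0.94) and Stard3nl (0.92). For Sparc they were H2-Eb1 (0.95), Trit1 (0.93) and ENSMUSG00000094114 (0.92), and for Spp1 Tmem260 (0.90), Mphosph6 (0.89) and Itpa (0.89). These are the highest of all the genes compared over only 10 samples and are given as a description.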

How the data were processed

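RNA-seq of tibialis anterior was analysed in 4 Control and 6 LLC mice. The authors deposited raw counts of reads for each gene, in whole numbers, made with TopHat on mm10 and HTSeq from stranded total RNA libraries. The study's methods name RefSeq genes, whereas the files list Ensembl identifiers, so the annotation release is uncertain, as is whether HTSeq's default settings, strand included, hold for these files. Depth was 16693209 to 21303084 counts, at which 3 counts are 0.141 to 0.180 CPM before TMM scaling, for counting error only. Counts were filtered with filterByExpr (minimum 10), scaled by TMM and compared by the quasi-likelihood test of edgeR 4.0.16 (with limma 3.58.1 and R 4.3.3), with log2 CPM at a prior count of 2 and SEs from the F statistic. Alternatives were DESeq2 1.42.0, limma voom, 2 other scalings, mitochondrial genes left out, 2 filters, an offset for transcript GC content and length, a replicate block, and leaving out every sample in turn. Changes relative to fibroblast markers were tested with limma's moderated test over all genes. Tests were checked on counts simulated from Control means, with the same dispersion trend in both groups. For changes of 1 on the log2 scale edgeR recovered 81 of 98 with 8 false calls. The test relative to markers recovered 76 of 98 with 19 false calls. The simulation held neither a wider spread in LLC nor a shift of the markers, so it does not check the tests under those conditions. Coordinates are GRCm38 (GENCODE M21). The 10 genes and the lists were chosen with earlier results of these data known. All 10 genes are named, and from other lists at most 4 called genes with the largest change.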

Additional observations from a re-analysis of the deposited data

Results flagged for a closer look

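Values of each of the 10 genes, total counts, mitochondrial share and distance from the group centre were searched in both groups for a sample far from the others by Dixon's ratio. This covered 26 groups of samples, in which chance gives about 1.3 such cases, and 1 was found. LLC 1 lay at a distance of 77.0 from the centre of its group, and the next LLC sample at 40.2, a gap of 0.768 of the group's range. None of the 10 genes had such a sample. Without LLC 1 the same 6 genes were called lower, and the median log2 fold change of the 10 genes was -1.34.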

How the results depend on the processing

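The count of 6 called genes stayed between 4 and 7 under all 19 alternatives. Postn, Tnc, Fbn1 and Mfap5 kept their call in every fit that tested them, while only 7 of the 10 genes passed the filter of at least 10 counts in every sample, which left out Postn, Tnc and Spp1. The number of genes past the threshold, 715, ranged from 415 to 966 with 1 sample left out, and was 417, 438, 415 and 418 without Control 1, 2, 3 and 4. It was 475 with that filter, and the other listed genes past the threshold were then 8 in place of 17. These ranged from 11 to 17 with 1 sample left out, and were 11 without Control 2. Same-numbered samples showed no clear shared deviation (correlations of -0.08 to 0.13). Samples with different numbers were not set beside them, so whether the numbers pair the samples stays uncertain. With the replicate block 112 genes and 4 of the other listed genes passed, and Fn1 (-0.97, adjusted p = 0.0874) and Ccn2 (-1.16, adjusted p = 0.146) lost their call, in a fit with fewer residual degrees of freedom. LLC 5 and LLC 6 have no Control of the same number, so they do not inform the group difference in that fit. The log2 fold change of Eln turned to 0.039 in limma voom, 0.051 with the replicate block and 0.15 with the offset for GC content and length, and ran from -0.098 to 0.074 with 1 sample left out, never past the threshold. Spp1 passed with no filter on low counts (-1.71) as in DESeq2. Relative to the fibroblast markers 3 or 4 genes were lower in 13 alternatives, and 1 was lower without Ly6a, where Spp1 turned to 0.12. With a prior count of 0.5 Fbn1 was at -0.58, under the fold threshold, and with the replicate block Fbln1 was at 0.56 (adjusted p = 0.0908) and Ccn2 turned to -0.0086. With 1 sample left out Ccn2 ran from -0.031 to 0.19 and Spp1 from -0.52 to 0.30. The cause of these moves was not tested, except that the strict filter and the block leave fewer genes or degrees of freedom by construction. Fewer than 50 counts per sample stood behind Tnc and Fbln1 in every sample, which limits single values.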
